A study of Mus musculus with 18 samples.

Results

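The genes described here are 36 enzymes, regulators and carriers of cholesterol and fatty acid synthesis. They were chosen by name from knowledge of the pathway and not by their values, but with earlier results of these data known. All 36 were among the 15402 genes of the deposited table and all 36 had a mean log2 value of at least 3, so none was lost to the filter on low values that left 13190 genes for testing. They comprise 7 enzymes from acetoacetyl-CoA to farnesyl pyrophosphate (mevalonate genes), 11 enzymes from squalene to cholesterol, 5 members of the SREBP control system, 3 proteins of sterol transport and efflux, 3 enzymes of fatty acid synthesis, 3 elongases and 4 desaturases.

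RNA-seq was performed on 6 populations of CD4+ T cells sorted from the draining inguinal and axillary lymph nodes of female C57/BL6 Foxp3Timer Foxp3-IRES-GFP mice, 5 days after 3% oxazolone had been applied to the abdominal skin, with 3 libraries per population and 18 in all. Every library came from sensitised animals that carried both reporters, the mice were pooled within replicates, and the labels give no age and no unsensitised group. Timer is a fluorescent protein driven by the Foxp3 gene whose blue form matures irreversibly to a red form, so that blue fluorescence follows recent Foxp3 transcription and red fluorescence its history. Cells negative for Timer and GFP were sorted as CD44lo (Tnaive) or CD44hi (Teff) cells. The 4 Timer+ GFP+ populations were Pers1 and Pers2, which hold blue fluorescence, and PAt and Arrested, which have lost most or all of it. The sample labels name these 4 as de novo, maturing, mature and decaying Foxp3 expressers, whereas the series description calls Pers1 and Pers2 persistent, PAt quiescent and Arrested arrested in Foxp3 transcription, and the latter names are used here. By the study's own account the 3 libraries of a population came from 3 groups of animals, each a pool of 3 mice, so p-values measure the spread between pools.

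Cells make cholesterol from acetyl-CoA through mevalonate, isoprenoid pyrophosphates, squalene and lanosterol, and the isoprenoids are also used to anchor small GTPases in membranes. When sterols in the endoplasmic reticulum fall, the escort protein Scap carries the SREBP transcription factors to the Golgi for cleavage and they activate the genes of synthesis, whereas Insig proteins hold Scap back when sterols are plentiful and the oxysterol receptors LXR then activate efflux pumps such as Abca1 and Abcg1. Fatty acids are built by acetyl-CoA carboxylase and fatty acid synthase, lengthened by Elovl enzymes and desaturated by Scd and Fads enzymes, and T cells that divide need both lipids for new membrane.

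Since many genes of sterol and fatty acid synthesis are targets of SREBP together with NF-Y and Sp1, the 300-base promoter windows of RefSeq on GRCm38.p6 (250 bases before to 50 after a start site) were searched on both strands for the sterol regulatory element core TCACNCCAC, the NF-Y box CCAAT, the Sp1 box GGGCGG and the E-box CACGTG. None of the 4 motifs contains another, but matches may overlap at their ends. Of the 36 genes, 28 had a window. Fdps, Fdft1, Sqle, Stard4, Abcg1, Scd1, Scd2 and Fads1 had none. The NF-Y box occurred in 22 of 28 genes, 78.6%, against 42.7% of the 9938 tested genes with a window. The Sp1 box occurred in 82.1% against 66.6%, and the E-box in 25% against 11.5%. All 9 squalene-to-cholesterol genes with a window held both the NF-Y and the Sp1 box. The sterol element core as spelled was found in 1 gene, Hmgcs1, which is 3.57% of the 28 against 1.33%, and it began at position -137 from the start. These are matches of letters, with no test, and not measured binding sites.

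The 4 promoter stretches below are shown, in 5′ to 3′ direction of the gene, each the 180 bases before the RefSeq start and each outside every gene of GENCODE vM21. Capitals mark NF-Y boxes (CCAAT or its complement ATTGG) and, in Hmgcs1, the sterol element core. Hmgcs1 is shown as the only one of the 28 with that core, Pmvk and Ebp as 2 synthesis genes that were higher in the persistent populations, and Abca1 as the efflux gene that was lower. They lie at chr13:119690171-119690350 (+ strand) for Hmgcs1, chr3:89454361-89454540 (+ strand) for Pmvk, chrX:8193513-8193692 (- strand) for Ebp and chr4:53159896-53160075 (- strand) for Abca1.
Hmgcs1: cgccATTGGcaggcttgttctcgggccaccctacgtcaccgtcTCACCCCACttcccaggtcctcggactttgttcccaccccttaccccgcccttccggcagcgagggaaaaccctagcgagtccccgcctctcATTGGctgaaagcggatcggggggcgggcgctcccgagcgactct
Pmvk: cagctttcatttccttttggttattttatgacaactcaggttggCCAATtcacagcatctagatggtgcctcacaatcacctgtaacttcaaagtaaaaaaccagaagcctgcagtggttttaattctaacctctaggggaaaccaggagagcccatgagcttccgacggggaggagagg
Ebp: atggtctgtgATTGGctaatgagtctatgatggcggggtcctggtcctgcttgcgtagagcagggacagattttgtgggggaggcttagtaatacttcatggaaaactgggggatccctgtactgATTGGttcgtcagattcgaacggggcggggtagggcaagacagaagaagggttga
Abca1: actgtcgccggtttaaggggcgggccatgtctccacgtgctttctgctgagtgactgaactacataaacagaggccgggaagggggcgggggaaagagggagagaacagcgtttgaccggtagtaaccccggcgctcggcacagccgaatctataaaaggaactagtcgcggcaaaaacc
The stretches of Hmgcs1 and Ebp held 2 NF-Y boxes each, that of Pmvk held 1 and that of Abca1 held 0. These picked genes do not show that the box goes with the direction of change, which was not tested. Abca1 was the only gene of sterol transport and efflux with a window. Acat2, which was higher in the persistent populations, had no NF-Y box in its window. Tm7sf2, which was lower, had the box, and so did Mvk and Lss, which did not pass.

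The deposited values are log2 normalised counts in the form of a regularised log transform. They are not scaled by transcript length, so levels are compared between populations and never between genes. The transform shrinks differences of weakly expressed genes. Raw counts were not used here, the depth is therefore unknown, and precision rests on the spread between 3 libraries. The library medians lay between 9.59 and 9.76 over all genes. All differences below are differences of mean log2 values with their standard error (SE) from one limma model over the 18 libraries, with p-values adjusted over the 13190 genes. A gene was called when its adjusted p was under 0.05 and its difference exceeded 1 in size, the thresholds of the study. The adjusted p alone was read as well, because most of the differences described here are under 1.

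The labelled cell types were checked by marker genes. The summed level of 6 T cell markers lay between 16.81 and 17.26 on the log2 scale in the 18 libraries, and that of 4 Treg markers between 15.98 and 16.99 in the Timer+ libraries and between 11.79 and 14.22 in the others. Markers of other cells were present unequally. Teff libraries had a summed dendritic cell marker level of 11.21 to 11.75, against 6.80 to 7.34 in the other 15 libraries, and their myeloid sum of 10.89 to 11.19 and CD8 T and NK cell sum of 11.74 to 12.18 were also above all the others. The B cell sum was 9.60 to 9.999 in Tnaive, 10.57 to 10.84 in Pers1 and Pers2, 11.31 to 11.90 in PAt and Arrested and 11.58 to 12.25 in Teff. These values are set beside the results that they move with, and their part in those results was not tested. In RNA from pooled cells, a change in the share of cells that express a gene and a change in RNA per cell cannot be told apart.

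Persistent Foxp3 expressors were compared with PAt and Arrested cells to see whether lipid synthesis differed with ongoing Foxp3 transcription among Timer+ cells. Most of the cholesterol pathway was higher in Pers1 and Pers2: of the 18 enzymes from Acat2 to Dhcr7, 15 passed the adjusted p as higher and 1 as lower, with a median difference of 0.56. Over all 36 genes, 27 passed as higher and 5 as lower, that is 75.0% and 13.9%, against 35.9% and 35.1% of all genes tested. With the fold threshold, 3 were called higher (Idi1, Cyp51 and Stard4) and 2 lower (Abca1 and Scd1), against 4.74% and 2.77% of all genes. The median difference of the 36 genes was 0.37, and that of all genes -0.01. All 6 persistent libraries lay above all 6 PAt and Arrested libraries for 22 of the 36 genes and below them for 4, against 24% and 21.8% of all genes. The 10 proliferation genes moved in the same direction, all of them higher with a median difference of 2.85, and their part in these differences was not tested. The B cell sum given above and the CD8 T and NK cell sum (9.84 to 10.34 against 10.54 to 10.80) were lower in all 6 persistent libraries than in the other 6. The stromal sum was lower as well (11.86 to 12.24 against 12.46 to 12.87). It was set almost wholly by Pecam1, whose population means lay between 11.9 and 13.03. Of the 3 tested stromal markers, 2 passed as lower and 1, Col1a1, as higher, by 0.88. Of the 5 CD8 T and NK cell markers, 3 passed as lower and 1, Klrb1c, as higher, by 0.61. The myeloid sum was higher in Pers1 (9.81 to 9.98) than in PAt and Arrested (9.03 to 9.62), whereas that of Pers2 (9.17 to 9.36) lay within their range. Of the 5 tested myeloid markers, 1, Itgam, passed as higher, by 2.05, and 1 as lower. The part of such cells was not tested either.

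**Figure D1:**
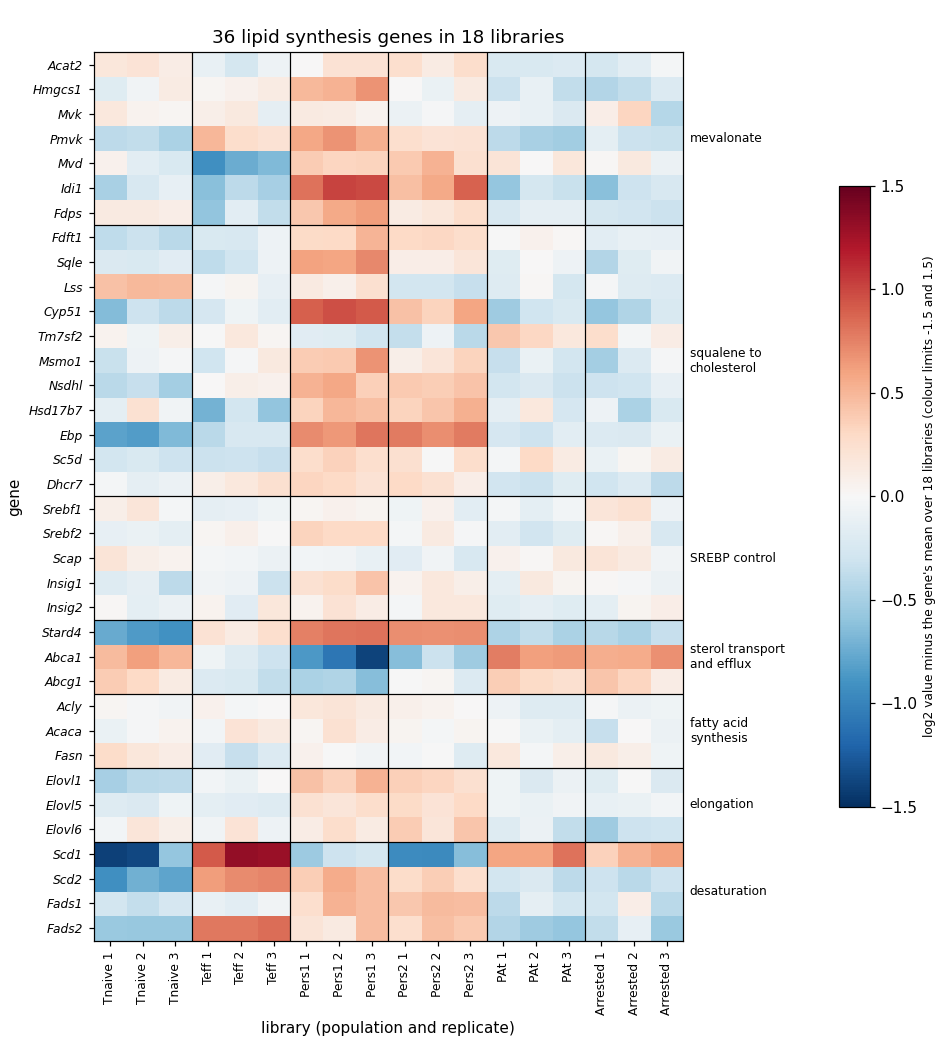
Colour shows the log2 value of each of the 36 genes (rows, grouped by role) in each of the 18 libraries (columns) after subtraction of the gene's mean over the 18 libraries. Most genes of cholesterol synthesis are high in the 6 Pers1 and Pers2 libraries, Abca1 and Abcg1 are low in Pers1, and Scd1 is high in Teff, PAt and Arrested.

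Among the 7 mevalonate genes, 6 passed the adjusted p and were higher, with a median of 0.59. Idi1, which converts isopentenyl to dimethylallyl pyrophosphate, read 10.38, 10.59 and 10.56 (Pers1), 10.03, 10.14 and 10.46 (Pers2), 8.997, 9.32 and 9.24 (PAt), and 8.95, 9.26 and 9.33 (Arrested). Every persistent library was above every PAt and Arrested library, and the difference was 1.18 (SE 0.0877, adjusted p = 1.41e-10), which is 2.26-fold. Idi1 shares 15.8% of its transcripts' 100-base stretches with the annotated copies Gm13502 and Gm35570, so its level is uncertain to the extent that reads were split between them. Hmgcs1, which makes HMG-CoA, the precursor of mevalonate, read 10.88, 10.91 and 11.06 (Pers1), 10.40, 10.29 and 10.53 (Pers2), 10.07, 10.28 and 10.02 (PAt), and 9.96, 10.02 and 10.19 (Arrested). Its Pers1 libraries were the highest and its Pers2 libraries stood between them and the other 6, with no overlap, and the difference was 0.59 (SE 0.0618, adjusted p = 3.03e-08). Pmvk, which phosphorylates mevalonate phosphate, was higher by 0.78 (SE 0.0629). Fdps, the farnesyl pyrophosphate synthase, was higher by 0.59 (SE 0.0606), and Acat2, the acetoacetyl-CoA thiolase, by 0.37 (SE 0.0575), but 21.4% and 28.9% of their stretches are shared with other annotated genes. Mvd, the mevalonate diphosphate decarboxylase, was higher by 0.29 (SE 0.066). Mvk, the mevalonate kinase, had a difference of 0.08 (SE 0.0936, adjusted p = 0.455), and its Arrested libraries ranged from 8.18 to 8.93, across the values of every other population. Without Arrested replicate 3 the Mvk difference was -0.026.

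Of the 11 genes from squalene to cholesterol, 9 passed as higher and 1 as lower, with a median of 0.53. Cyp51, the lanosterol demethylase, read 11.01, 11.08 and 11.04 (Pers1), 10.55, 10.44 and 10.71 (Pers2), 9.57, 9.81 and 9.88 (PAt), and 9.53, 9.67 and 9.88 (Arrested). All 6 persistent libraries lay above the other 6, Pers1 above Pers2, and the difference was 1.08 (SE 0.0712, adjusted p = 1.95e-11), or 2.11-fold. Its locus overlaps the tested gene Akap9 by 166 bases on the opposite strand. Sqle, the squalene epoxidase and a control point of the pathway, read 9.91, 9.89 and 10.02 (Pers1), 9.41, 9.40 and 9.49 (Pers2), 9.13, 9.32 and 9.23 (PAt), and 8.87, 9.13 and 9.26 (Arrested). Here too Pers1 was highest, Pers2 intermediate and the groups did not overlap, with a difference of 0.53 (SE 0.0674, adjusted p = 4.7e-07). Ebp, the sterol isomerase, was higher by 0.94 (SE 0.0468), just under the fold threshold, and its Pers1 and Pers2 means were close at 11.49 and 11.52. Nsdhl and Msmo1, which remove methyl groups from the sterol ring, were higher by 0.70 (SE 0.051) and 0.59 (SE 0.092). Hsd17b7, the 3-ketosteroid reductase of this step, was higher by 0.59 (SE 0.0971), and Dhcr7, the last enzyme before cholesterol in one branch, by 0.52 (SE 0.0476).

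The other 4 enzymes of this stretch gave smaller or opposite values. Fdft1, the squalene synthase, was higher by 0.38 (SE 0.0481) and overlaps the tested gene Ctsb by 774 bases on the opposite strand. Sc5d, a sterol desaturase, was higher by 0.16 (SE 0.0595, adjusted p = 0.0255), with overlapping libraries. Lss, which closes the sterol ring, had a difference of 0.07 (SE 0.0595, adjusted p = 0.285). Its locus overlaps an antisense gene, 4930483K19Rik, over 11268 bases, and whether reads were counted by strand is not given in the sources used here. Tm7sf2, one of the sterol reductases, was the only one of the 18 enzymes that passed as lower, at -0.45 (SE 0.0763), with no overlap of libraries, and it shares 532 bases and 7.92% of its stretches with Vps51 on the same strand.

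**Figure D2:**
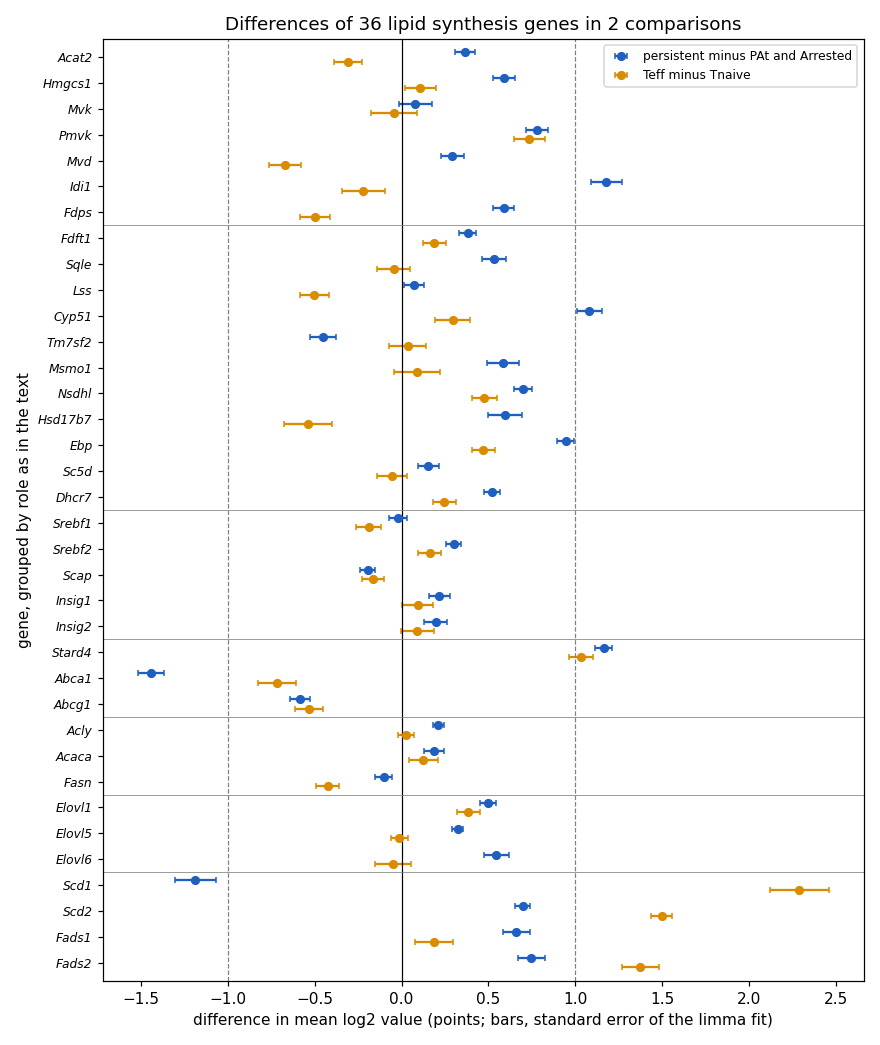
Points show the difference in mean log2 value of each gene between the persistent and the PAt and Arrested populations (blue) and between Teff and Tnaive (orange), bars the standard error of the fit, and dashed lines the fold threshold of 1. Blue points lie to the right of 0 for 17 of 18 cholesterol synthesis genes, whereas orange points of these genes fall on both sides of 0.

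The 5 regulators of the pathway had a median difference of 0.20, against 0.56 for its 18 enzymes, a contrast that was not tested. Srebf2, which encodes the SREBP that mainly drives cholesterol genes, read 13.69, 13.66 and 13.65 (Pers1), 13.33, 13.50 and 13.34 (Pers2), 13.20, 13.08 and 13.18 (PAt), and 13.37, 13.44 and 13.12 (Arrested). Pers1 was the highest population with no overlap, Pers2 overlapped Arrested, and the difference between persistent and PAt and Arrested cells was 0.30 (SE 0.0451, adjusted p = 5.15e-06). Srebf1, whose products lean towards fatty acid genes, read 12.44, 12.47 and 12.45 (Pers1), 12.35, 12.48 and 12.25 (Pers2), 12.38, 12.26 and 12.37 (PAt), and 12.59, 12.63 and 12.33 (Arrested). No population stood apart and the difference was -0.02 (SE 0.0504, adjusted p = 0.727), with a sign that turned when Pers2 replicate 3 or Arrested replicate 2 was left out (0.007 and 0.008). Insig1, itself a target of SREBP, read 10.64, 10.69 and 10.84 (Pers1), 10.47, 10.58 and 10.50 (Pers2), 10.26, 10.56 and 10.45 (PAt), and 10.43, 10.39 and 10.32 (Arrested). Pers1 was above all other libraries, Pers2 overlapped PAt, and the difference was 0.22 (SE 0.0614, adjusted p = 0.00361). Insig2, its relative, read 9.17, 9.33 and 9.23 (Pers1), 9.08, 9.27 and 9.27 (Pers2), 8.93, 8.98 and 8.93 (PAt), and 8.96, 9.16 and 9.22 (Arrested). These groups overlapped, and the difference of 0.20 (SE 0.0674, adjusted p = 0.0137) was among the smallest that passed. Scap, the escort of SREBP, had a difference of -0.20 (SE 0.0444, adjusted p = 0.000552), also with overlapping libraries. In sum 3 of the 5 passed as higher and 1 as lower. When each library was centred on its median, 2 passed as higher and 1 as lower.

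Carriers of sterol moved in both directions. Stard4, which moves cholesterol between membranes and is a target of SREBP2, read 10.48, 10.52 and 10.53 (Pers1), 10.42, 10.40 and 10.42 (Pers2), 9.26, 9.35 and 9.25 (PAt), and 9.31, 9.24 and 9.38 (Arrested). The persistent libraries lay far above the others with little spread, and the difference was 1.16 (SE 0.0472, adjusted p = 7.34e-15), or 2.24-fold. Abca1, the pump that exports cholesterol to apolipoproteins, read 8.69, 8.48 and 8.17 (Pers1), 8.92, 9.23 and 9.02 (Pers2), 10.33, 10.17 and 10.19 (PAt), and 10.10, 10.11 and 10.24 (Arrested). The order was reversed here, with Pers1 lowest, Pers2 next and PAt and Arrested highest, and the difference was -1.44 (SE 0.077, adjusted p = 6.37e-13). Abcg1, which exports cholesterol to lipoprotein particles, read 11.64, 11.67 and 11.48 (Pers1), 12.11, 12.14 and 11.91 (Pers2), 12.48, 12.41 and 12.36 (PAt), and 12.53, 12.44 and 12.22 (Arrested). Its persistent libraries were all below the other 6, and the difference was -0.58 (SE 0.058, adjusted p = 1.36e-08).

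**Figure D3:**
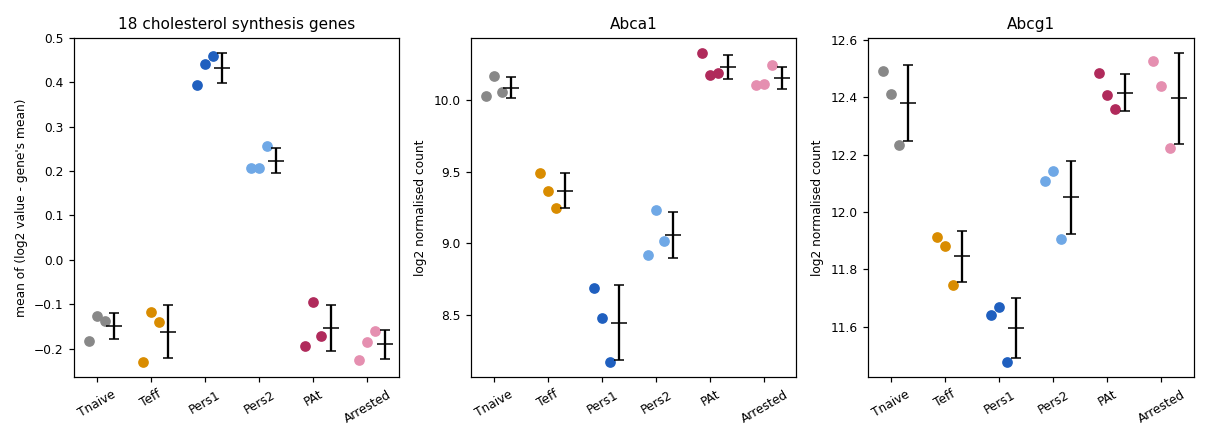
The left panel plots per library the mean over 18 cholesterol synthesis genes of the log2 value minus the gene's mean, and the other panels plot the log2 normalised counts of Abca1 and Abcg1. Points are libraries, black bars the mean and SD of 3 libraries, and axes do not start at 0. The synthesis mean is highest in Pers1 and next in Pers2, whereas both pumps are lowest in Pers1.

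As a summary of the 18 synthesis enzymes, the mean of their values centred on each gene reached 0.43 ± 0.0337 (SD, n = 3) for Pers1 and 0.22 ± 0.0287 for Pers2. Arrested gave -0.19 ± 0.0324, Teff -0.16 ± 0.0601, PAt -0.15 ± 0.0515 and Tnaive -0.15 ± 0.0291. The last 4 populations lay within 1 range, from -0.23 to -0.095 over their 12 libraries, and so could not be ordered. For Abca1 and Abcg1 together the same mean gave -0.81 ± 0.176 for Pers1, -0.28 ± 0.118 for Pers2 and -0.23 ± 0.103 for Teff, against 0.40 ± 0.0761 for Tnaive, 0.49 ± 0.0719 for PAt and 0.44 ± 0.0412 for Arrested. The Teff libraries, from -0.34 to -0.13, thus overlapped those of Pers2, from -0.37 to -0.15, for the pumps, whereas the synthesis means of Teff and Pers2 did not overlap.

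Fatty acid synthesis proper changed little between these Timer+ populations. Fasn, the fatty acid synthase, read 12.96, 12.89 and 12.84 (Pers1), 12.85, 12.89 and 12.70 (Pers2), 13.06, 12.86 and 12.98 (PAt), and 13.04, 12.98 and 12.82 (Arrested). The populations overlapped throughout and the difference was -0.10 (SE 0.048, adjusted p = 0.0617). Acly, which supplies acetyl-CoA from citrate, was higher by 0.21 (SE 0.0319), and Acaca, the acetyl-CoA carboxylase, by 0.19 (SE 0.0588), with 23.7% of the stretches of Acaca shared with other annotated genes. When libraries were centred on their median, 1 of the 3 passed as higher and 1 as lower. The 3 elongases were all higher with no overlap of libraries, Elovl6, which extends palmitate, by 0.55 (SE 0.0718), Elovl1, which makes very long saturated chains, by 0.50 (SE 0.046), and Elovl5, which acts on polyunsaturated chains, by 0.32 (SE 0.0334).

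The desaturases split. Scd2, a stearoyl-CoA desaturase that makes monounsaturated fatty acids, read 13.20, 13.38 and 13.29 (Pers1), 13.10, 13.19 and 13.08 (Pers2), 12.55, 12.61 and 12.44 (PAt), and 12.51, 12.42 and 12.52 (Arrested). Both persistent populations lay above both others, and the difference was 0.70 (SE 0.043, adjusted p = 6.72e-12). Scd1, its close relative, read 7.83, 8.07 and 8.12 (Pers1), 7.43, 7.42 and 7.74 (Pers2), 8.97, 8.97 and 9.19 (PAt), and 8.72, 8.90 and 8.98 (Arrested). The order was turned around with no overlap, and the difference was -1.19 (SE 0.12, adjusted p = 1.76e-08). Fads1 and Fads2, which make polyunsaturated fatty acids, were higher by 0.66 (SE 0.0761) and 0.75 (SE 0.0758). Fads2 was near the bottom of the measured range, between 3.99 and 5.40 in the 18 libraries, where the transform shrinks differences most.

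Scd1 moved with markers of B cells. Its population means were 9.55 in Teff, 9.05 in PAt, 8.87 in Arrested, 8.01 in Pers1, 7.53 in Pers2 and 7.26 in Tnaive, and the population order of the summed B cell markers was the same. All 6 of these markers passed the adjusted p as lower in Pers1 and Pers2 combined, with a median difference of -0.95, and 3 were called. Within populations, the 3 libraries had the same order for Scd1 and for the B cell sum in 4 of 6 populations and another order in the remaining 2, Pers2 and Arrested. In Pers2, replicate 2 had the highest sum, 10.82, and the lowest Scd1 value, 7.42. The part of B cell RNA in the Scd1 result was not tested. Scd1 shares 2.58% of its stretches with other genes, among them Scd2.

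**Figure D4:**
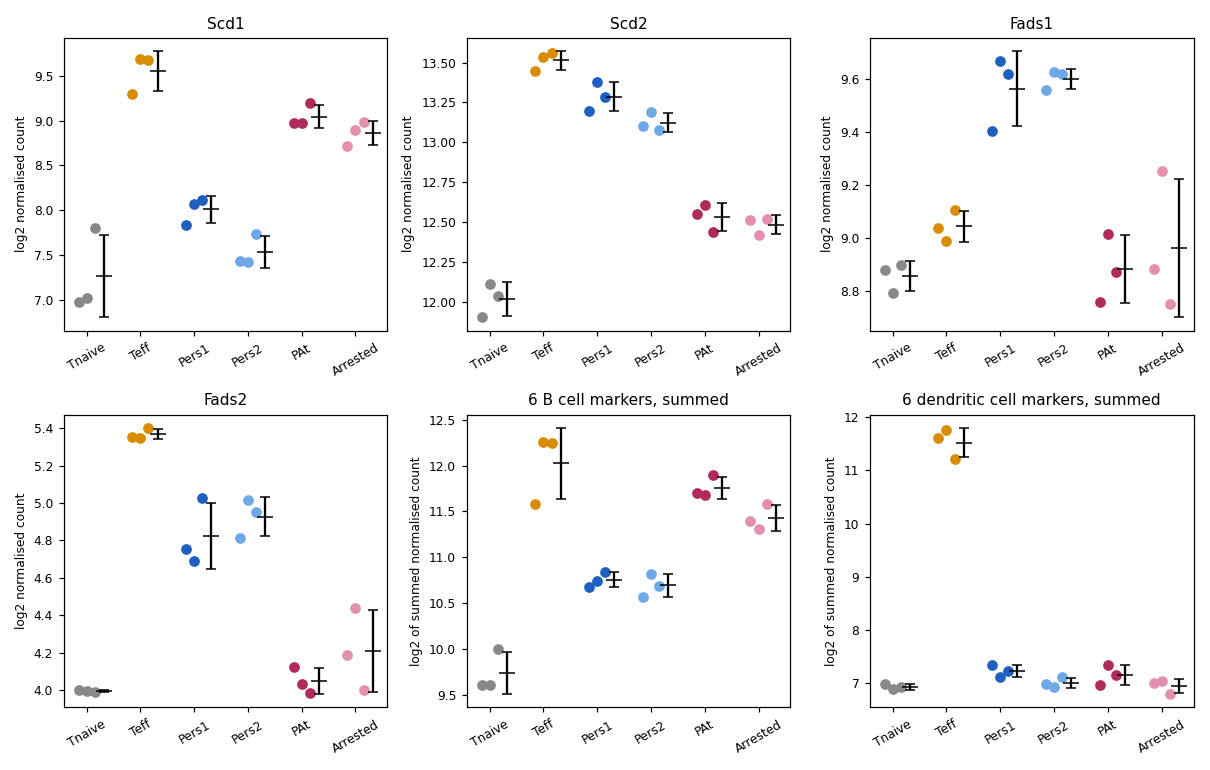
Log2 normalised counts of the 4 desaturase genes and the log2 summed normalised counts of 6 B cell and 6 dendritic cell markers are plotted for each library (points), with the mean and SD of 3 libraries (black bars), on axes that do not start at 0. Scd1 and the B cell sum share the order of populations, Scd2 is highest in Teff and lowest in Tnaive, and the dendritic cell sum is high in Teff only. Fads2 is highest in Teff, and its Tnaive libraries overlap those of PAt near the bottom of the measured range.

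Pers2 was compared with Pers1 to see whether the pathway differed between the 2 persistent populations. None of the 36 genes was called, against 0.144% of all genes higher and 0.0455% lower, but by the adjusted p from limma alone 7 were lower in Pers2 and 2 higher, that is 19.4% and 5.56%, against 4.56% and 6.02% of all genes. At an unadjusted p under 0.05 there were 13 lower and 2 higher, against 11.2% and 12.8% of all genes. From Pers1 to Pers2, Hmgcs1 fell by 0.55 (SE 0.0874), Sqle by 0.51 (SE 0.0954), Cyp51 by 0.48 (SE 0.101), Lss by 0.45 (SE 0.0841), Pmvk by 0.36 (SE 0.089), Fdps by 0.35 (SE 0.0857) and Srebf2 by 0.28 (SE 0.0638). The 2 higher genes were both efflux pumps, Abca1 by 0.61 (SE 0.109) and Abcg1 by 0.46 (SE 0.082). The enzymes after Cyp51 (Tm7sf2, Msmo1, Nsdhl, Hsd17b7, Ebp, Sc5d and Dhcr7) did not pass, with values from -0.29 (SE 0.13) for Msmo1 to 0.03 (SE 0.0662) for Ebp. The 10 proliferation genes, which had a median difference of 0.14, included none that passed. With the replicate number as a block, 12 genes were lower and 2 higher, against 6.4% and 7.83% of all genes in that fit. Markers of other cells moved as well. The 5 tested myeloid markers had a median of -0.59 and 2 passed as lower, and the sum of all 6 in the table was 9.17 to 9.36 in Pers2 against 9.81 to 9.98 in Pers1. Of the 6 dendritic cell markers, 2 passed as lower, with a median of -0.27. The stromal sum, set almost wholly by Pecam1, was 11.86 to 12.06 in Pers2 against 12.11 to 12.24 in Pers1. The 3 tested stromal markers had a median of 0.01, and 1 passed as lower. The part of such cells in these differences was not tested.

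Between Arrested and PAt cells no difference in these genes was detected, which does not show that they are alike. None of the 36 was called and none passed the adjusted p by limma, against 0.0455% and 0.0758% of all genes called higher and lower and 2.07% and 2.97% that passed. At an unadjusted p under 0.05 there were 4 higher and 1 lower, against 7.92% and 10.2% of all genes. The median difference was -0.02 and the range ran from -0.18 for Hsd17b7 to 0.20 for Pmvk. Without Arrested replicate 3, 2 genes passed as higher and 0 as lower, against 3.06% and 3.55% of all genes in that fit.

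Teff was compared with Tnaive to see how these genes differed between CD44hi and CD44lo cells negative for Timer. Both were sorted from sensitised animals, so the contrast does not follow cells through activation. Of the 4 desaturases 3 rose, while cholesterol synthesis enzymes passed in both directions. The fourth, Fads1, did not pass, at 0.19 (SE 0.108, adjusted p = 0.142). Among the 36 genes, 4 were called higher (Stard4, Scd1, Scd2 and Fads2) and 0 lower, that is 11.1%, against 8.88% and 2.28% of all genes. By the adjusted p alone, 12 were higher and 10 lower, 33.3% and 27.8%, which is near the 31.3% and 27.7% of all genes. Of the 18 cholesterol enzymes, 6 passed as higher and 5 as lower, with a median of -0.003. The 36-gene median of 0.06 became -0.02 when libraries were centred on their median, a scaling that gave 9 genes higher and 11 lower, against 26% and 36.2% of all genes. Teff libraries had raised markers of dendritic, myeloid, B, and CD8 T and NK cells as given above, and their part in every Teff comparison was not tested.

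The genes that rose most in Teff were desaturases. Scd1 read 6.98, 7.02 and 7.80 (Tnaive) and 9.30, 9.69 and 9.67 (Teff), with a difference of 2.29 (SE 0.17, adjusted p = 1.95e-10). Scd2 read 11.90, 12.11 and 12.04 (Tnaive) and 13.45, 13.54 and 13.56 (Teff), with a difference of 1.497 (SE 0.0608, adjusted p = 8.87e-15). Both were well separated between Teff and Tnaive, although Tnaive replicate 3 stood above the other 2 Tnaive libraries for Scd1. Fads2 was higher by 1.37 (SE 0.107) and Stard4, which read 8.97, 8.87 and 8.82 (Tnaive) and 9.94, 9.84 and 9.98 (Teff), by 1.03 (SE 0.0668). The Stard4 libraries of Teff stood between those of Tnaive and of the persistent populations, with no overlap.

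Of the 7 mevalonate genes, 3 were lower in Teff than in Tnaive and 1 was higher, with a median of -0.22. Mvd fell by 0.67 (SE 0.0934), Fdps by 0.50 (SE 0.0857) and Acat2 by 0.31 (SE 0.0814), whereas Pmvk rose by 0.74 (SE 0.089). Hmgcs1 read 10.21, 10.33 and 10.51 (Tnaive) and 10.42, 10.45 and 10.51 (Teff). Idi1 read 9.08, 9.33 and 9.45 (Tnaive) and 8.95, 9.18 and 9.08 (Teff). Neither passed. In the later stretch Ebp, Nsdhl, Cyp51, Dhcr7 and Fdft1 were higher, by 0.47, 0.48, 0.29, 0.25 and 0.19, and Hsd17b7 and Lss fell by 0.54 and 0.50. Cyp51 read 9.47, 9.80 and 9.72 (Tnaive) and 9.87, 10.05 and 9.96 (Teff), and its Teff libraries were just above those of Tnaive. Sqle read 9.09, 9.07 and 9.14 (Tnaive) and 8.93, 9.01 and 9.23 (Teff), with overlap.

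The pumps were lower in Teff. Abca1 read 10.03, 10.17 and 10.06 (Tnaive) and 9.49, 9.37 and 9.25 (Teff), and the difference was -0.72 (SE 0.109, adjusted p = 8.48e-06). Abcg1 read 12.49, 12.41 and 12.23 (Tnaive) and 11.91, 11.88 and 11.75 (Teff), and the difference was -0.53 (SE 0.082, adjusted p = 1.02e-05). No Teff library overlapped Tnaive for either pump. Fasn was also lower in all 3 Teff libraries, with 13.17, 13.06 and 13 (Tnaive) and 12.72, 12.55 and 12.69 (Teff) and a difference of -0.43 (SE 0.0678, adjusted p = 1.53e-05). Among the regulators, Srebf2 read 13.23, 13.26 and 13.21 (Tnaive) and 13.39, 13.44 and 13.36 (Teff). Srebf1 read 12.50, 12.59 and 12.38 (Tnaive) and 12.27, 12.29 and 12.35 (Teff). Their differences of 0.16 (SE 0.0638) and -0.19 (SE 0.0712) passed in opposite directions. When libraries were centred on their median, none of the 5 regulators passed as higher and 2 passed as lower. Insig1 read 10.22, 10.27 and 10.02 (Tnaive) and 10.36, 10.33 and 10.09 (Teff). Insig2 read 9.13, 8.97 and 9.02 (Tnaive) and 9.17, 8.94 and 9.28 (Teff). Neither passed.

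The difference between the 2 shifts was tested directly, as the shift from PAt and Arrested to the persistent populations minus the shift from Tnaive to Teff. Cholesterol synthesis genes were more positive in the Treg shift: of the 18 enzymes, 13 passed the adjusted p as higher and 1 (Tm7sf2) as lower, with a median of 0.49. Of all 36 genes, 18 were higher and 5 lower, 50% and 13.9%, against 23.2% and 25.5% of all genes. With the fold threshold Idi1 (1.40, SE 0.152), Hsd17b7 (1.13, SE 0.168) and Fdps (1.09, SE 0.105) were called higher and Scd1 (-3.48, SE 0.208) lower, against 1.52% and 6.9% of all genes. Mvd, at 0.96 (SE 0.114), was just under the threshold. Pmvk and Stard4 rose in both shifts and their difference of shifts did not pass, at 0.04 (SE 0.109, adjusted p = 0.771) and 0.13 (SE 0.0818, adjusted p = 0.201). For Abcg1, which fell in both, it was -0.05 (SE 0.1, adjusted p = 0.71), while Abca1 fell further in the Treg shift, with -0.72 (SE 0.133, adjusted p = 0.00013). Scd2 and Fads2 rose less in the Treg shift, with differences of -0.80 (SE 0.0745) and -0.63 (SE 0.131). Of the 10 proliferation genes, all passed as higher in the Treg shift and 9 in the Teff shift (Tyms, at 0.14, did not pass), with medians of 2.85 and 2.73. All 6 B cell markers were called lower in this contrast, with a median of -3.02, and so were 5 of the 6 dendritic cell markers.

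Persistent populations were also set directly against Teff. By limma, Mvd, Idi1 and Ebp were called higher and Scd1 lower, 8.33% and 2.78%, against 4.28% and 4.03% of all genes. By the adjusted p alone 22 were higher and 5 lower, 61.1% and 13.9%, against 29.8% and 28.9%. Mvd was higher by 1.14 (SE 0.0809), Idi1 by 1.29 (SE 0.107), Ebp by 1.03 (SE 0.0573) and Hsd17b7 by 0.96 (SE 0.119). Scd1, at -1.78 (SE 0.147), Abca1, at -0.62 (SE 0.0943), and Fads2, at -0.49 (SE 0.0929), were lower. Teff libraries stood apart in the other cell markers, so the part of those cells cannot be told apart from that of T cells here. Proliferation genes differed too: all 10 passed as higher in the persistent populations and 9 were called, with a median of 1.90. Their part in these differences was not tested.

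PAt and Arrested cells were compared with Tnaive and with Teff. Against Tnaive, Scd1 was called higher at 1.69 (SE 0.147) and none lower, 2.78% and 0%, against 6.63% and 1.27% of all genes. By the adjusted p alone 9 were higher and 6 lower, 25% and 16.7%, against 26.9% and 23.8%, a split that became 7 and 8 when libraries were centred on their median, against 21.2% and 35% of all genes. Lss fell by 0.62 (SE 0.0728) and Ebp higher by 0.56 (SE 0.0573). Abca1, at 0.11 (SE 0.0943, adjusted p = 0.367), and Abcg1, at 0.03 (SE 0.071, adjusted p = 0.776), did not pass. Against Teff, Scd2 (-1.01, SE 0.0527) and Fads2 (-1.24, SE 0.0929) were called lower and none higher, 5.56% and 0%, against 4.04% and 2.84%. This count of 2 fell to 1 without Teff replicate 2, Teff replicate 3, PAt replicate 3 or Arrested replicate 2. By the adjusted p alone 7 were higher, led by Mvd (0.85, SE 0.0809) and Abca1 (0.82, SE 0.0943), and 13 lower, 19.4% and 36.1%, against 24.8% and 27.9%. All comparisons named so far share populations, so their values are given side by side and not as independent results.

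Genes around the pathway were read from lists in the comparison of persistent with PAt and Arrested cells, where 35.9% of all genes passed the adjusted p as higher and 35.1% as lower. Of 14 genes that use isoprenoids (prenyltransferases and the ubiquinone and dolichol branches), 8 passed as higher and 3 as lower (57.1% and 21.4%), none was called, and Coq2, a ubiquinone enzyme, was lower at -0.56 (SE 0.0633). The 10 genes of SREBP processing and sterol-regulated degradation gave 4 higher and 5 lower (40% and 50%), with none called. Of 10 tested genes of oxysterols, LXR and its targets, 5 were higher and 3 lower (50% and 30%). Rxra, the partner of LXR and other nuclear receptors, was called at 1.57 (SE 0.0665), and Gpr183, an oxysterol receptor that guides lymphocytes, at 1.16 (SE 0.0768), while Rxrb, at -0.57 (SE 0.0438), and Mylip, an LXR target that degrades lipoprotein receptors, at -0.93 (SE 0.0473), were lower. Other LXR targets of the list went the other way: Lpcat3, Arl4c and Smpdl3a passed as higher, by 0.24 (SE 0.0363), 0.15 (SE 0.0302) and 0.09 (SE 0.0308). The LXR gene Nr1h2 passed as lower, at -0.35 (SE 0.058). Of 15 tested genes of sterol uptake, storage and transfer, 9 were higher and 3 lower (60% and 20%). Soat2, which esterifies cholesterol, was called at 1.36 (SE 0.0957), its relative Soat1 was higher by 0.53 (SE 0.0468), and Scarb1, a receptor for high-density lipoprotein, by 0.80 (SE 0.0659). Among 20 tested genes of other fatty acid supply and modification, 8 were higher and 6 lower (40% and 30%). Hsd17b12, a reductase of the elongation cycle, was called at 1.01 (SE 0.0557), and Hacd3, the dehydratase that follows it, was higher by 0.56 (SE 0.0457). The acetyl-CoA synthetases Acss1, at -0.68 (SE 0.0419), and Acss2, at -0.65 (SE 0.0432), were lower.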

How the data were processed

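RNA was measured in 18 libraries of 6 sorted populations. The authors prepared stranded mRNA libraries, sequenced paired-end reads, aligned them to mm10 (also with the Timer gene added) and analysed counts with DESeq2. The authors deposited 1 log2 normalised count per gene and library, for 15402 genes, whose values have the form of a regularised log. The submitters' processing notes name CASAVA 1.8.2, FastQC 0.11.2 and TopHat2 2.0.9. The counter, the annotation and its strand setting are not given in the sources used here. Values run from -0.02 to 18.89. Depth and counting error are unknown, since counts were not analysed here.

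The 13190 genes with a mean of at least 3 were tested (2212 left out) in one limma 3.58.1 model in R 4.3.3 with 6 population means (12 residual degrees of freedom), a variance trend and adjustment by Benjamini-Hochberg. The adjusted p-values are those of limma. A simulation with known changes was used to check the model. The 36 genes and all lists and motifs were chosen with earlier results of these data known. All 36 genes are named by role, every called gene is named in the other comparisons, and values in all 18 libraries are given for those called in the first comparison and for 11 regulators, rate-limiting enzymes and pumps. Other genes of the lists were named after their values were seen.

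Gene positions and shared stretches came from GENCODE vM21 on GRCm38, and promoters from RefSeq on GRCm38.p6. Figures were drawn with matplotlib 3.10.9 in Python 3.11.15. By the series description the populations were sorted out of the same animals. Libraries with the same replicate number were taken as paired, which neither that description nor the study states outright. Deviations from population means had a median correlation of 0.166 in the 45 pairs of libraries with the same number (-0.206 to 0.436) and of -0.0642 in the 90 pairs with different numbers. The main model has no block, as the study's methods name none. Alternatives changed the filter, the variance model, the scaling, the block, the libraries in the fit and the fold threshold, and left out each library in turn. The count by adjusted p alone was added as a result after the data were seen.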

Additional observations from a re-analysis of the deposited data

Results flagged for a closer look

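For 4 genes the difference between the Treg shift (persistent minus PAt and Arrested) and the Teff shift (Teff minus Tnaive) was itself past both thresholds in limma, which is why they are listed. Idi1 had a difference of shifts of 1.40 (SE 0.152, adjusted p = 1.46e-07), with a Treg shift of 1.18 and a Teff shift of -0.22. Fdps had a difference of 1.09 (SE 0.105, adjusted p = 2.51e-08), from shifts of 0.59 and -0.50. For Hsd17b7 it was 1.13 (SE 0.168, adjusted p = 1.01e-05), from 0.59 and -0.54. Scd1 went the other way with -3.48 (SE 0.208, adjusted p = 1.24e-11), from -1.19 and 2.29. For Fdps, Hsd17b7 and Scd1 each shift passed the adjusted p in opposite directions. In this contrast the 6 B cell markers had a median of -3.02 and the 6 dendritic cell markers one of -2.80, and their part in these 4 results was not tested.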

How the results depend on the processing

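The 5 calls of the first comparison held under every filter, variance model, scaling, block and left-out library that was run, and Idi1 ranged from 1.11 to 1.22, Cyp51 from 1.03 to 1.13, Stard4 from 1.15 to 1.18, Abca1 from -1.502 to -1.37 and Scd1 from -1.24 to -1.14 when single libraries were left out. Over the same fits Srebf1 ranged from -0.067 to 0.008 and Mvk from -0.026 to 0.162, so their signs are not fixed. With no fold threshold, the counts were 32 for persistent against PAt and Arrested, 22 for Teff against Tnaive, 27 for persistent against Teff, 15 and 20 for PAt and Arrested against Tnaive and against Teff, 9 for Pers2 against Pers1 and 23 for the difference of shifts. With a threshold of 0.5 they were 19, 10, 13, 3, 8, 3 and 13. Both sets of counts rise because the threshold is lower. No share of all genes is given at 0.5, so the counts at 0.5 do not set the 36 genes apart from all genes. Centring each library on its median moved the 36-gene median to 0.309, -0.020, 0.157 and -0.044 in the first 4 of these comparisons, and quantile normalisation moved it to 0.306 for persistent against PAt and Arrested, -0.015 for Teff against Tnaive and -0.033 for PAt and Arrested against Tnaive. Quantile normalisation shifted the median of all genes by -0.104 in Teff against Tnaive. For PAt and Arrested against Teff the count of 2 became 1 with a mean of at least 5 and lay between 1 and 2 when single libraries were left out. The count for Arrested against PAt by adjusted p alone lay between 0 and 2. With the replicate block, which takes libraries of the same number as paired, 14 genes in place of 9 passed the adjusted p for Pers2 against Pers1. In the first comparison 5 were called, as without it. The block changed no other count by more than 1.5 times. A fit on only the populations compared could not be made for the difference of shifts, which uses all 6. Unknown depth, the shrinkage of low genes such as Fads2 and 3 libraries per population limit the precision, and small differences that missed the threshold are not shown to be absent.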

Other observations

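The use of fatty acids beyond their synthesis was read from 2 further lists in the comparison of persistent with PAt and Arrested cells. Of 18 tested genes of fatty acid oxidation, 11 passed the adjusted p as higher and 2 as lower, 61.1% and 11.1% against 35.9% and 35.1% of all genes, with a median of 0.23. Fabp5, which carries fatty acids in the cytosol, was called at 1.49 (SE 0.0835), Hadh, which acts on hydroxyacyl-CoA in mitochondria, was higher by 0.70 (SE 0.0475) and Acadl, a long-chain acyl-CoA dehydrogenase, by 0.56 (SE 0.052). The 2 lower genes were Acadm, the medium-chain dehydrogenase, at -0.43 (SE 0.0431), and Ppard, a nuclear receptor, at -0.41 (SE 0.0678). Of 14 tested genes of glycerolipid synthesis, 6 were higher and 4 lower, 42.9% and 28.6%, and Agpat4, an acyltransferase of phosphatidic acid synthesis, was called at 1.96 (SE 0.0959), against a Teff shift of 0.68. In the Teff shift, 8.88% of all genes were called higher and 2.28% lower. Of the 10 tested genes of oxysterols, LXR and its targets, 3 were called higher, Cyp27a1, which makes an oxysterol, by 2.50, Rxra by 1.84 and Smpdl3a by 1.20, and 1 lower, Arl4c, at -1.59. Of the 15 tested genes of sterol uptake, storage and transfer, 3 were called higher, Soat2 by 1.95, Gramd1b by 1.26 and Osbpl5 by 1.24, and 1 lower, Npc2, which moves cholesterol out of lysosomes, at -1.20. Dendritic and myeloid markers rose in the same libraries, and their part in these values was not tested.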
